A study of Mus musculus with 8 samples.

Results

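The spermatid genes Slc2a5, Nudt16l2, Cby2, Spem1, Spata6 (slc2a5, nudt16l2, cby2, spem1 and spata6 in the files) and 4933411K16Rik were followed through the busulfan experiment. They were chosen by their read counts in these same libraries, because their reads were lost in wild-type testes after busulfan and partly kept in Tent5c mutant testes. These 6 genes have 8 transcripts among the 2783 in the count table, and 6 of its 2243 named genes. The 4 groups were whole testes of adult males that were Tent5c wt/wt (wt) or Tent5c dcat/dcat (dcat), given a single dose of vehicle or of busulfan at 20 mg/kg, with testes taken 4 weeks later. TENT5C lengthens the poly(A) tails of mRNA in the cytoplasm, and dcat stands for a form of it with no catalytic activity. Since the mutation is in both copies in all cells of the animal, germ cells and somatic cells of these testes carried it alike. Each group had 2 mice, and each mouse gave 1 Nanopore direct RNA library, in which a read is 1 RNA molecule with its own poly(A) tail. The 8 libraries held 29574 to 129074 reads, of which 13 to 749 came from the 6 genes.

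Spermatids complete their shape change after their chromatin has been packed and transcription has stopped, so the proteins of the tail, neck and head are made from mRNA stored earlier. The poly(A) tail is a main feature of such stored mRNA, since its length bears on stability and on translation. Dividing spermatogonia are killed by busulfan, an alkylating agent, after which the later germ cells are not replaced, and the testis loses them in the order in which they would have been made. Of the genes described here, Spem1 encodes a small spermatid protein needed for shedding of cytoplasm and for a straight sperm head and neck, and Spata6 encodes a protein of the coupling apparatus that joins head and tail. Slc2a5 encodes the fructose transporter GLUT5. Cby2 encodes a Chibby family protein of spermatids, and Nudt16l2 is a relative of the Nudix hydrolase Nudt16. 4933411K16Rik is named only by its cDNA clone.

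All positions are on mouse genome GRCm38, with GENCODE vM21 annotation. The Slc2a5 transcript (ENSMUST00000030826) lies on chromosome 4 from 150119283 to 150144169 on the plus strand and has 14 exons. Spata6, also on chromosome 4 plus strand, has 3 transcripts in the table. Its coding transcripts ENSMUST00000038868 (111719984 to 111829142) and ENSMUST00000084354 (111720205 to 111829184) have 13 exons each, and the noncoding ENSMUST00000143879 starts inside the gene and has 8 exons (111777558 to 111829134). All 3 Spata6 transcripts share the start of their last exon at 111828186, and the aligner gave each read to 1 of them, so their counts are not independent. Spem1 (ENSMUST00000045771, chromosome 11, minus strand, 69820876 to 69822180, 3 exons) has a 3′ UTR of 31 bases, and its relative Spem2 lies next to it, from 69816566 to 69818465. Cby2 (ENSMUST00000035243, named Spert in this annotation) has 2 exons on chromosome 14, minus strand, from 75582877 to 75591985. Nudt16l2 (ENSMUST00000035180, named 1700080E11Rik) has 3 exons on chromosome 9, minus strand, from 105143342 to 105145092. 4933411K16Rik (ENSMUST00000164518) is a single coding exon on chromosome 19, plus strand, from 42052248 to 42053627. It sits inside Hoga1 on the same strand and overlaps 1 Hoga1 exon, and no Hoga1 transcript is in the count table.

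The poly(A) signal is the hexamer that directs cleavage and tail addition, and a match in the annotated sequence is shown for each gene. Whether the tails described below were added downstream of these copies was not tested. The capitals mark the match of AATAAA, or else of ATTAAA, nearest to the transcript end, in a window of 30 bases of the last exon, read from the GENCODE vM21 transcripts.
Slc2a5, chr4:150144136-150144165, plus strand: ttacatacatagAATAAAgattctttggca
Nudt16l2, chr9:105143344-105143373, minus strand: agctgacaccagATTAAAaggcagaactgt
Cby2, chr14:75582901-75582930, minus strand: cacctgacacacAATAAAgacagaggaggc
Spem1, chr11:69820876-69820905, minus strand: gactggggacaaaaaaataaaaAATAAAaa
Spata6, chr4:111829105-111829134, plus strand: taaataattgaaAATAAAagaattatattg
4933411K16Rik, chr19:42053596-42053625, plus strand: ctgaatggagccAATAAAgccctgcacacc
All but 1 of these windows hold AATAAA, and that of Nudt16l2 holds ATTAAA. Among the 2738 deposited transcripts found in the annotation, 65.2% had AATAAA in their last 50 bases and a further 13.8% had ATTAAA without it, and of the 8 transcripts 6 had AATAAA there, 1 had ATTAAA and 1 neither. That 1 is Spata6 ENSMUST00000084354, whose AATAAA starts 68 bases from its end. The Spem1 window holds a further AATAAA, in lower case, that starts 15 bases from the transcript end, while the marked copy starts 8 bases from it, and which of them acts as the signal was not tested. The A-rich end of Spem1 is genomic sequence that lies at the annotated transcript end.

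The 250 bases upstream of the RefSeq start (GRCm38.p6) are shown for Spem1 and 4933411K16Rik, the pair with the highest share of their reads left in dcat testes after busulfan. The capitals mark the CCAAT motif, and the 4933411K16Rik stretch held none of the motifs searched.
Spem1, chr11:69822166-69822415, minus strand: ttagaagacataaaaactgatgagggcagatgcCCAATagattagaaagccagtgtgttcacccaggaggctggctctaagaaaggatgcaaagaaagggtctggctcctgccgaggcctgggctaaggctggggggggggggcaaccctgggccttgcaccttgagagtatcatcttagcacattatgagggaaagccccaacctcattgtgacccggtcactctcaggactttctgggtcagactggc
4933411K16Rik, chr19:42051978-42052227, plus strand: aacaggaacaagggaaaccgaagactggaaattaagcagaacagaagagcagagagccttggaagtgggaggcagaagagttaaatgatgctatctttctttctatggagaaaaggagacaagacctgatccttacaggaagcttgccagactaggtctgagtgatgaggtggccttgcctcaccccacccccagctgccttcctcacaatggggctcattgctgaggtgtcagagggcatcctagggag
Promoter windows of RefSeq (250 bases before to 50 after a start) matched all 6 genes, with 8 windows since Cby2 and Spata6 have 2 each. Motifs were searched on both strands. CCAAT was in the Spem1 window and in 1 Cby2 window, against 37.4% of all 32851 windows. TGACG, the core of the cAMP response element, was in 1 Spata6 window, against 20.8% of all, and the whole element TGACGTCA, which contains TGACG, was in 0 of the 8 windows and in 1.79% of all. TATAAA was in 0 of the 8, against 13.6%.

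In vehicle testes of both genotypes the 6 genes were read at similar levels. In CPM (reads of the gene per-million reads of the library, with no further scaling), Spata6 had 1852 and 2384 in wt libraries (replicates 1 and 2) and 1826 and 1728 in dcat libraries, and 4933411K16Rik had 2167 and 1996 in wt and 1488 and 1883 in dcat. Spem1 had 985 and 818 in wt and 744 and 782 in dcat. The lowest levels were those of Slc2a5 (630.5 and 527 in wt, 304 and 597 in dcat), Cby2 (552 and 429.7 in wt, 237 and 395 in dcat) and Nudt16l2 (217 and 305 in wt, 237 and 418 in dcat). For Slc2a5 and Nudt16l2 the values of the genotypes overlapped. For Cby2, Spem1, Spata6 and 4933411K16Rik both dcat values lay below both wt values. By transcript this held for 4 of the 8, against 13.8% of all 2783 transcripts. A read count per molecule does not grow with gene length in this assay, but these are shares of all reads of a library, not amounts per cell.

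No member transcript differed between the genotypes in vehicle testes by edgeR's quasi-likelihood test, with 0 of 8 at an adjusted p under 0.05 and 0 of 8 at an unadjusted p under 0.05. This comparison called 0% of all 2783 transcripts (65 had an unadjusted p under 0.05 by edgeR and 19 by DESeq2, which also called 0). The log2 ratio of dcat to wt levels ran from -0.75 (SE 0.48) for Spata6 ENSMUST00000084354 to 0.44 (SE 0.47) for Nudt16l2 ENSMUST00000035180, with an edgeR adjusted p of 1.0 for each of the 8. The vehicle libraries are also those against which the loss of reads was seen when the genes were chosen.

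Wild-type testes kept almost no reads of these genes after busulfan. Slc2a5, Nudt16l2 and Cby2 had 0 reads in both wt busulfan libraries, against 32 and 38, 11 and 22, and 28 and 31 reads in the wt vehicle libraries. A count of 0 allows up to 3 reads, which are 45.4 and 26.0 CPM in the wt busulfan libraries. Taking 3 reads over the group as the floor, the wt vehicle level came to 34.5-fold this floor for Slc2a5. It came to 16.2-fold for Nudt16l2 and 29.0-fold for Cby2. The vehicle reads were taken as exact here, so their own counting error is not covered. Spem1, with 50 and 59 reads in wt vehicle libraries, had 1 read in each wt busulfan library, a ratio of 80.5 (exact 95% interval 21.8 to 673, which covers counting error only). Spata6 had 94 and 172 reads in the wt vehicle libraries and 2 and 9 in the wt busulfan libraries, which are from other mice. 4933411K16Rik, with 110 and 144 reads in the wt vehicle libraries, was the only one of the 6 with 10 or more reads in each wt busulfan library, at 10 and 16. These counts chose the genes and are given as a description.

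In dcat testes the same genes were read after busulfan in both mice. Slc2a5, the fructose transporter gene, had 2 and 14 reads in dcat busulfan libraries (32.5 and 145 CPM), Cby2 had 4 and 17 (65.1 and 176 CPM) and Nudt16l2 had 5 and 15 (81.3 and 155 CPM). Spata6 had 20 and 55 reads (325 and 569 CPM), Spem1 20 and 32 (325 and 331 CPM) and 4933411K16Rik 82 and 109 (1334 and 1127 CPM). Each of these values lay below both dcat vehicle values of its gene, and each was higher than the values listed for the wt busulfan libraries. The 32.5 CPM of Slc2a5 in dcat busulfan replicate 1 are under the 45.4 CPM that a count of 0 allows in wt busulfan replicate 1, so that pair of libraries cannot be ordered. With 3 reads over the wt busulfan libraries as the floor, pooled dcat busulfan reads came to 6.12-fold this floor for Slc2a5. They came to 7.65-fold for Nudt16l2 and 8.03-fold for Cby2. The dcat reads were taken as exact, so these ratios are not lower limits for counting error in both groups. These ratios also rest on unlike libraries. From dcat busulfan replicate 1 alone they came to 1.97 for Slc2a5, 4.92 for Nudt16l2 and 3.94 for Cby2, and from dcat busulfan replicate 2 alone to 8.76, 9.38 and 10.6. With wt busulfan replicate 1 as the only wt library they were 2.23, 2.78 and 2.92, and with wt busulfan replicate 2 as the only one 3.89, 4.86 and 5.11. The pooled ratio was 7.82 (exact interval 4.13 to 16.3) for Spata6, 8.43 (5.58 to 13.2) for 4933411K16Rik and 29.8 (7.85 to 253) for Spem1. In whole-testis RNA, fewer cells of a type and less RNA per cell cannot be told apart.

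**Figure D1:**
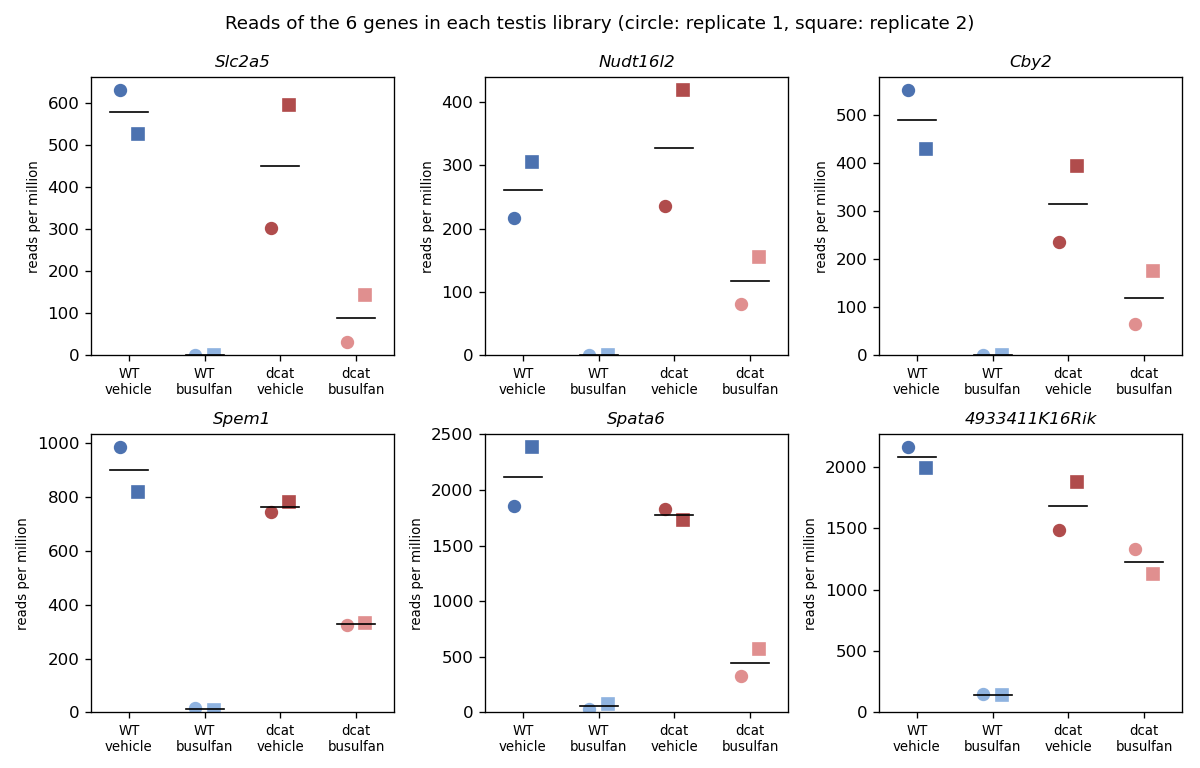
CPM, reads of the gene per-million library reads (vertical axis, from 0, its scale set per gene) for the 6 genes, summed over their transcripts, in the 4 groups. Each point is 1 library (circle replicate 1, square replicate 2) and the bar is the mean of both. The wt busulfan points sit at or near 0, and the dcat busulfan points sit between those and the dcat vehicle points for every gene.

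Counted by transcript, all 8 had both wt busulfan libraries below both wt vehicle libraries, as did 43.4% of all 2783 transcripts. All 8 had both dcat busulfan libraries below both dcat vehicle libraries, as did 37.9% of all, and all 8 had both dcat busulfan libraries above both wt busulfan libraries, as did 30.3% of all. The first and last of these patterns were the ground for choosing the genes, so nothing is read from the 8 of 8. In the last pattern a count of 0 was taken as 0 CPM, though it allows 45.4 CPM in wt busulfan replicate 1. The order of Slc2a5 rests on such a 0. So does that of Spata6 ENSMUST00000084354, with 41.4 CPM in dcat busulfan replicate 2. The genes are also not the whole of the pattern. Of the 38 named genes with 0 reads in both wt busulfan libraries, 11 had 10 or more reads in the dcat busulfan libraries together, and Slc2a5, Nudt16l2 and Cby2 are 3 of them. Of the other 8, named here after their values were seen, Gstt4 had 4 and 14 and Ddi1 2 and 13 dcat busulfan reads.

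The share of the vehicle level that was still present after busulfan differed between the genes. On TMM-scaled CPM, dcat busulfan testes had 73.5% of the dcat vehicle level of 4933411K16Rik, 43.5% of Spem1, 38.9% of Cby2, 36.7% of Nudt16l2, 25.7% of Spata6 and 20.2% of Slc2a5. In wt testes the shares were 6.72% for 4933411K16Rik, 2.59% for Spata6 and 1.24% for Spem1. Within replicate 1, whose 4 extracts were sequenced as 1 multiplexed library, the dcat share was 90.2% for 4933411K16Rik and 10.8% for Slc2a5. Within replicate 2 it was 61.0% and 24.7%. The Spem1 share was 44.0% and 43.1% in the same pairs, and that of Nudt16l2 34.6% and 37.8%. Cby2 (27.6% and 45.3%) and Spata6 (17.9% and 33.6%) had, like Slc2a5, the higher share in replicate 2, while that of 4933411K16Rik was higher in replicate 1.

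The genes were set beside 42 genes of late spermatids, such as protamines and outer dense fibre genes, of which 38 were in the table. These 38 had a median dcat share of 27.2% (6.20% to 88.4%) and a median wt share of 4.27% (1.62% to 55.0%). The share was higher in dcat than in wt testes for 35 of the 38, which is the direction for which the 6 genes were chosen. How many of all named genes went this way was not counted, so the 35 are not read as particular to the list. A higher dcat share than that of 4933411K16Rik was found for 2 of the 38, than that of Spem1 for 8, Cby2 11, Nudt16l2 12, Spata6 19 and Slc2a5 24. Reads partly kept in dcat testes were also a ground for choosing the genes, so this dcat order is given as a description. The order in wt testes was set by the choice of genes for their loss there and is likewise a description. In wt testes 0 of the 38 had a share below those of Slc2a5, Nudt16l2, Cby2 or Spem1, while 9 lay below Spata6 and 24 below 4933411K16Rik. Prm1, a protamine of the condensed sperm nucleus, had 47 and 136 wt busulfan reads and 160 and 995 dcat busulfan reads. Smcp, whose product sits on sperm mitochondria, had 53.8% of its vehicle level left in wt and 51.9% in dcat, and Odf1, an outer dense fibre gene, 43.4% in wt and 25.3% in dcat. Smcp had 176 and 447 reads in the wt busulfan libraries and Odf1 82 and 227.

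**Figure D2:**
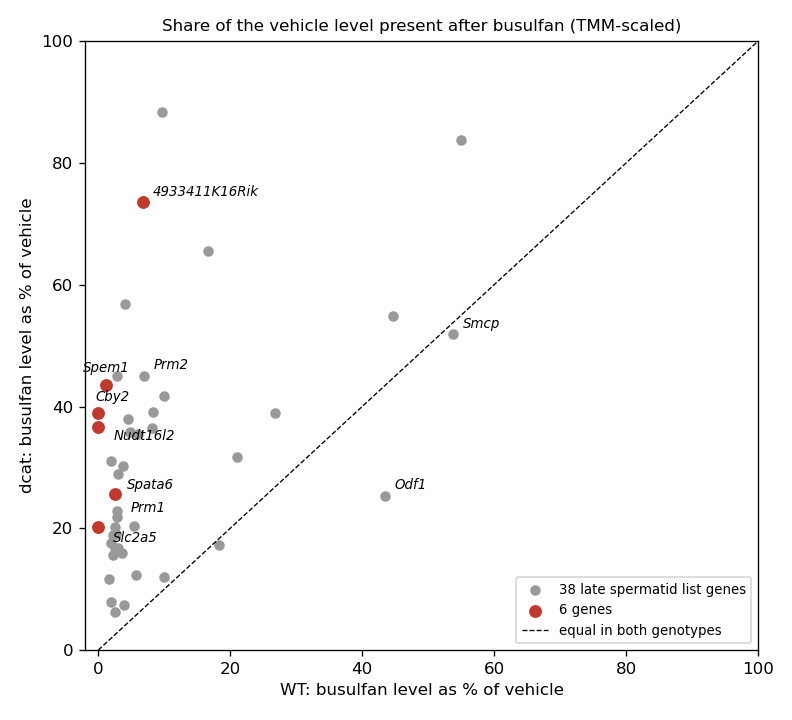
Busulfan level as a percentage of the vehicle level (TMM-scaled CPM, mean of 2 libraries per group) in wt testes (horizontal axis) and in dcat testes (vertical axis). Red points are the 6 genes and grey points the 38 late spermatid list genes, with the dashed line where both are equal. The 6 genes lie at the left edge, from 0 to 6.72% in wt, and spread from 20.2% to 73.5% in dcat.

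By edgeR on all libraries, 59 of the 60 transcripts of the late spermatid list were lower in wt busulfan than in wt vehicle testes, a direction in which 38.3% of all transcripts were called. In dcat testes 48 of 60 were lower (31.4% of all transcripts), and 28 of 60 without dcat vehicle replicate 2. Between the genotypes after busulfan, 26 of 60 were higher in dcat (5.39% of all transcripts), a count that came to 37 without dcat busulfan replicate 1 and to 3, 1 and 6 without dcat busulfan replicate 2, wt busulfan replicate 1 and wt busulfan replicate 2, and to 9 by DESeq2. The median log2 fold change over the list was -4.16 in wt, -1.84 in dcat and 2.04 between the genotypes after busulfan, against 0.09, 0.14 and 0.20 over all transcripts. In vehicle testes 0 of 60 were called by edgeR and by DESeq2.

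Cell type markers moved with the treatment. Summed CPM of the late spermatid list were 121086 to 147855 in vehicle libraries, and after busulfan 11067 and 14789 in wt and 26333 and 47446 in dcat mice. The round spermatid list (12 of 23 genes in the table) stood at 11429 to 15221 with vehicle, and after busulfan at 818 and 988 in wt and 1805 and 3402 in dcat mice. In the same order, the spermatocyte list (6 of 20) stood at 4588 to 5615, 590.4 and 494, and 683 and 1779. Both dcat busulfan libraries thus had higher spermatid CPM than either wt busulfan library, and dcat busulfan replicate 2 had higher CPM than dcat busulfan replicate 1. Much of the round spermatid sum came from Ldhc, which the study also read in spermatocytes. Ldhc gave 369 of the 667 list reads in wt vehicle replicate 1 and 18 of the 54 in wt busulfan replicate 1. In dcat busulfan replicate 2 it gave 190 of the 329. Leydig markers (12 of 15 genes) stood at 4563 to 8081 in vehicle libraries, and after busulfan at 50718 and 55465 in wt and 34286 and 28687 in dcat mice. Insl3, a Leydig hormone gene, had 2082 and 4197 reads after busulfan in wt mice, compared with 930 and 1329 in dcat mice. Without Insl3 the other 11 Leydig genes summed to 19197 and 19103 CPM in wt and 19160.1 and 14943 in dcat mice after busulfan, and Insl3 was 62.1% and 65.6% of the Leydig reads in wt and 44.1% and 47.9% in dcat mice. Sertoli markers (12 of 20) stood at 3843 to 7135 in vehicle libraries. After busulfan they stood at 43118 and 42400 in wt and 39784 and 29855 in dcat mice. Macrophage (5 of 12) and peritubular markers (5 of 10) were higher in every busulfan library than in every vehicle library. After busulfan macrophage markers stood at 2695 and 2686 in wt and 2147 and 1810 in dcat mice. Peritubular markers stood at 2453 and 2166 in wt and 2163 and 2068 in dcat mice. The part of these cell differences in the levels of the 6 genes was not tested.

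Set against the late spermatid reads of the same library, the genes differed among themselves. Together they made up 39.9 to 46.5 reads per 1000 late spermatid list reads in vehicle libraries. After busulfan they made up 17.8 and 15.2 in wt mice and 82.1 and 52.7 in dcat mice. These are the counts that chose the genes on another scale, so the direction of this difference is not a result. The make-up of the list also differed with treatment. In wt replicate 1, Prm1 had 1483 of the 6992 list reads with vehicle and 47 of the 731 with busulfan, while Smcp had 277 and 176. In wt replicate 2, Prm1 had 2558 of 10666 and 136 of 1707, and Smcp 472 and 447. Values per 1000 list reads thus also depend on which list genes kept their reads. On this scale 4933411K16Rik had 12.3 to 15.7 in the 4 vehicle libraries, and after busulfan 13.7 and 9.37 in wt mice and 50.6 and 23.8 in dcat mice. Spem1 had 5.53 to 7.15 in vehicle libraries, and after busulfan 1.37 and 0.586 in wt and 12.4 and 6.97 in dcat mice. The other 4 genes in dcat busulfan libraries had values in or closer to their vehicle range. Spata6 had 12.4 and 11.99 there, against 12.2 to 16.1 in vehicle libraries, and Nudt16l2 3.09 and 3.27, both above its vehicle range of 1.57 to 2.96. Cby2 had 2.47 and 3.71, within its vehicle range of 1.95 to 4.00, and Slc2a5 1.24 and 3.05, the first below its vehicle range of 2.51 to 4.58. The share of 4933411K16Rik among all reads of the 6 genes was 30.8% to 33.8% in vehicle libraries. After busulfan it was 76.9% and 61.5% in wt mice, out of 13 and 26 reads, and 61.7% and 45.04% in dcat mice.

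**Figure D3:**
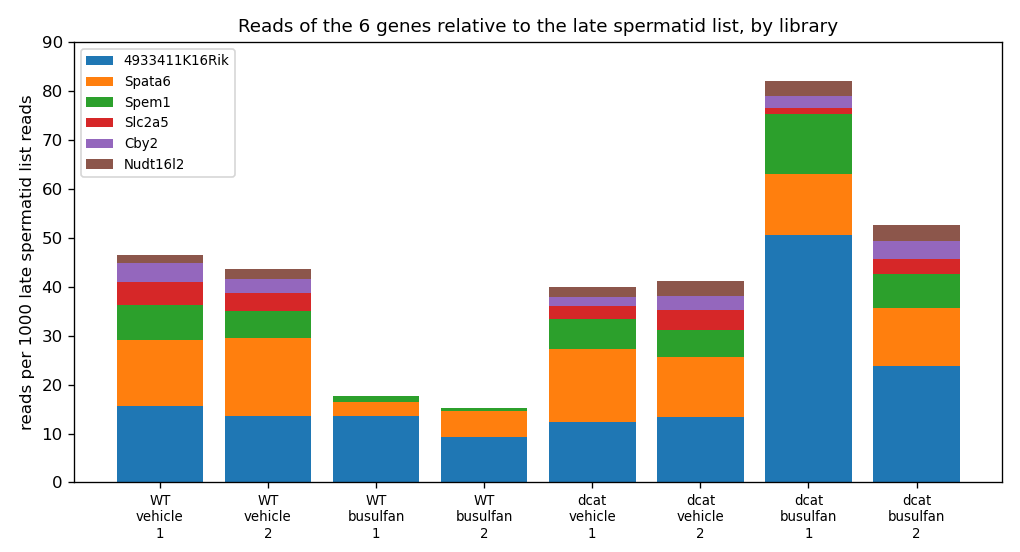
Reads of the 6 genes per 1000 reads of the late spermatid list (vertical axis, from 0), stacked by gene, in each of the 8 libraries. The stacks stand at 39.9 to 46.5 in vehicle libraries, at 17.8 and 15.2 in wt busulfan libraries, and at 82.1 and 52.7 in dcat busulfan libraries, and 4933411K16Rik is the largest part in all 4 busulfan libraries.

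The aligner divided Spata6 reads among its 3 transcripts in a steady way in vehicle testes. These are shares of assigned reads, and how much of the Spata6 RNA was noncoding was not tested. The noncoding ENSMUST00000143879 took 44.8% to 48.1% of the gene's reads in the 4 vehicle libraries, ENSMUST00000038868 took 40.1% to 44.4% and ENSMUST00000084354 took 10.3% to 15.1%. In dcat busulfan replicate 2 the shares were 47.3%, 45.5% and 7.27%, close to these. In dcat busulfan replicate 1 the 20 reads were split as 8, 5 and 7, the last being 35%, with a Wilson 95% interval of 18.1% to 56.7% for ENSMUST00000084354. The 11 wt busulfan reads were 8 of ENSMUST00000038868, 1 of ENSMUST00000084354 and 2 of ENSMUST00000143879.

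The 5 genes whose levels followed the mean of the 6 most closely over the 8 libraries, among 2222 genes with at least 40 reads, were Gapdhs (Pearson r = 0.997), Spz1 (0.992), Phf7 (0.991), Prm2 (0.991) and Acot7 (0.989). These points share their libraries and the treatment split, so r is a description. Gapdhs, the sperm form of a glycolytic enzyme, had 169 and 227 reads in wt and 53 and 387 in dcat mice given vehicle. After busulfan it had 10 and 17 in wt mice, against 42 and 107 in dcat mice. Prm2, the other protamine gene, had 1182 and 1877 (wt) and 589 and 3280 (dcat) with vehicle, and 149 and 155 (wt) and 588 and 1028 (dcat) with busulfan. Of the 6 genes, Cby2 followed the mean of the other 5 most closely (r = 0.988) and 4933411K16Rik least (0.957).

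Relatives of the genes were also read. Spem2, the neighbour of Spem1, had 34 reads in each wt mouse given vehicle and 7 and 17 after busulfan, and in dcat mice 15 and 81 with vehicle and 22 and 48 after busulfan, so 22.0% of its vehicle level remained in wt and 76.4% in dcat. Spem1 itself, with its 1.24% and 43.5%, had lower shares than its neighbour in both genotypes. Spem1 was chosen by these same read counts, for its loss in wt testes among other grounds, so the contrast is a description. Spem3 had 0 and 1 reads after busulfan in wt mice and 0 and 3 in dcat mice. Spata6l was left at 6.19% in wt and 35.6% in dcat, and Slc2a3, a glucose transporter gene, at 15.1% and 31.3%. Of 10 relatives listed, these 4 were in the table.

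The poly(A) tails of the 6 genes in vehicle testes were long in both genotypes. Mean tails per library, in nucleotides (nt), were 174 and 175 for Spata6 in wt and 172 and 169.6 in dcat testes, 165 and 159.9 for Spem1 in wt and 145 and 154 in dcat, and 148 and 143 for 4933411K16Rik in wt and 143 and 147 in dcat. Slc2a5 had 147 and 155 nt in wt, and 157 nt in dcat replicate 2, the deeper of the dcat vehicle libraries. Cby2 had 163 and 136 nt in wt and 157 nt in dcat replicate 2, and Nudt16l2 had 109 and 148 nt in wt and 153 nt in dcat replicate 2. Each of these 3 genes had only 7 to 9 reads in dcat vehicle replicate 1. Over all reads of the 6 genes, 65.9% to 74.8% of the tails in vehicle libraries were of 120 to 210 nt, the long class of the study, and 17.5% to 20.8% were of 30 to 120 nt, its short class.

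In vehicle testes no tail difference between the genotypes was called for these genes. Of the 8 transcripts, 4 had at least 10 reads in each vehicle library and could be tested with limma, and 0 of the 4 passed at an adjusted or at an unadjusted p under 0.05, in a comparison in which 0.139% of 720 transcripts were called. For Spem1 ENSMUST00000045771 the difference of dcat from wt was -13.19 nt (SE 8.76, limma adjusted p = 0.989), with both dcat means below both wt means. For 4933411K16Rik ENSMUST00000164518 it was -0.93 nt (SE 6.16), for Spata6 ENSMUST00000143879 -5.19 nt (SE 8.84) and for Spata6 ENSMUST00000038868 0.78 nt (SE 9.31), each with the same adjusted p. The 1 transcript called among the 720 was Insl3 (-29.88 nt, SE 5.42, limma adjusted p = 0.0119). Over the 40 late spermatid list transcripts tested 0 were called, and their median difference was 1.39 nt against 1.49 nt over all 720.

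After busulfan the mean tail of 4933411K16Rik was lower in both genotypes. In wt testes its mean tail was 73.9 and 75.7 nt, with an SD over reads of 54.9 and 55.8 nt. In dcat busulfan testes it was 96.0 and 127 nt, so both dcat libraries lay above both wt busulfan libraries and below all 4 vehicle libraries, which had 143 to 148 nt. The median tail was 47.5 and 49.3 nt in wt busulfan libraries, 92.1 and 134 nt in dcat busulfan libraries and 149 to 155 nt in vehicle libraries. In vehicle libraries 20.5% to 24.7% of its reads had tails of 30 to 120 nt. After busulfan this share was 70% (Wilson 39.7% to 89.2%) and 56.3% (33.2% to 76.9%) in wt mice, and 68.3% (57.6% to 77.4%) and 33.0% (24.9% to 42.3%) in dcat mice. The wt busulfan values of 4933411K16Rik rest on 10 and 16 reads of the contrast that chose the genes, and no test result is read from them. Shorter tails were not particular to this gene. In wt testes limma called 206 of 527 transcripts shorter with busulfan, and the median difference over all was -19.93 nt. Between the genotypes after busulfan, the 14 late spermatid list transcripts tested had a median difference of 18.43 nt (dcat longer), against 2.85 nt over all 1188. Of the 14, limma called 2 longer and 2 shorter in dcat.

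Within dcat testes, the busulfan against vehicle difference in tail length could be tested for 4933411K16Rik and Spem1, the 2 of the 8 transcripts with at least 10 reads in each dcat library. The choice of genes used read numbers of these libraries and not tails. The 4933411K16Rik tail was shorter with busulfan (difference -32.95 nt, SE 10.28, limma adjusted p = 0.0498, range 0.00072 to 0.478 over the alternatives), in a comparison that called shortening for 19.5% of 441 transcripts. With the replicate block, which is the pairing given by the shared multiplexed libraries, the adjusted p was 0.00072 and 135 of the 441 were called shorter instead of 86. Leaving out dcat busulfan replicate 1 gave -17.39 nt (adjusted p = 0.362), and after centring each library on its median tail it was -10.18 nt (adjusted p = 0.478). The median difference over all 441 transcripts was -17.23 nt. For Spem1 the means were 107 and 138 nt in dcat busulfan and 145 and 154 nt in dcat vehicle libraries. Its difference was -27.15 nt with an SE of 13.43, which did not pass the test (adjusted p = 0.171) but was called without dcat busulfan replicate 2 (-42.6 nt, adjusted p = 0.0485).

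**Figure D4:**
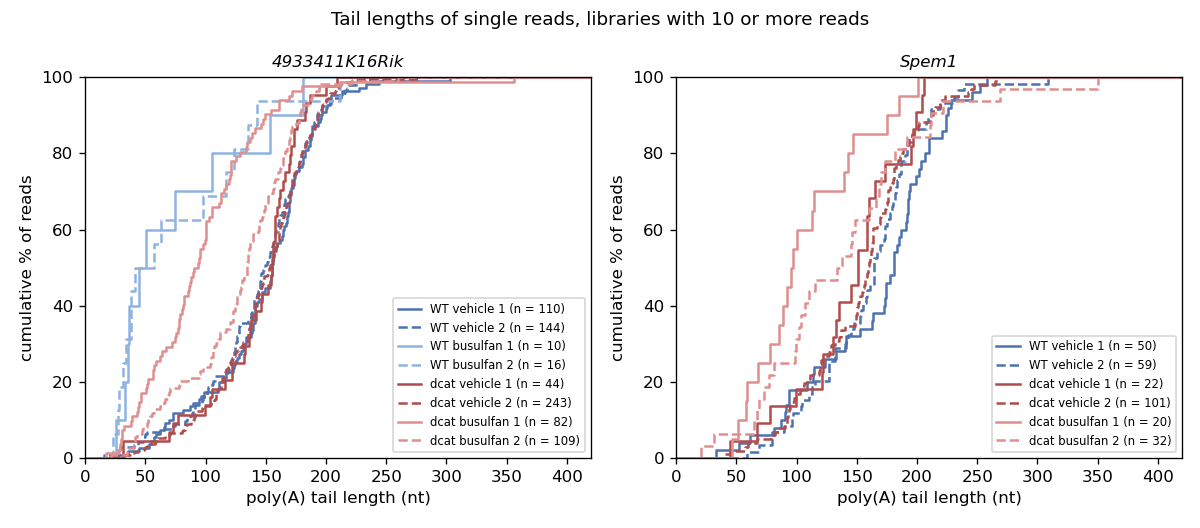
Cumulative percentage of reads (vertical axis) by poly(A) tail length in nt (horizontal axis) for 4933411K16Rik and Spem1, with 1 line per library that had 10 or more reads (solid replicate 1, dashed replicate 2). For 4933411K16Rik the wt busulfan lines rise first, at medians of 47.5 and 49.3 nt, then dcat busulfan replicate 1 (92.1 nt) and replicate 2 (134 nt), and the vehicle lines last. For Spem1 dcat busulfan replicate 1 rises before the other libraries.

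The 2 dcat busulfan mice differed in tails as well as in spermatid reads. Over all reads of the 6 genes the mean tail was 107 nt in replicate 1 and 139 nt in replicate 2, where vehicle libraries had 156 to 158 nt. Of the 133 reads of replicate 1, 63.2% (Wilson 54.7% to 70.9%) had tails of 30 to 120 nt, and of the 242 reads of replicate 2, 29.8% (24.3% to 35.8%). The late spermatid list as a whole showed the same order, with mean tails of 109.5 and 134 nt in dcat busulfan, 116 and 119.95 nt in wt busulfan and 145 to 150.2 nt in vehicle libraries. The list had 7 of 22 tested transcripts called shorter in dcat busulfan against vehicle testes, with a median difference of -28.94 nt, and 13 of 22 without dcat busulfan replicate 2. Smcp had mean tails of 83.2 and 109.6 nt in dcat busulfan libraries and Odf1 116 and 159 nt, while Prm1, at 141 and 140.1 nt, lay within its vehicle range of 138 to 143 nt. In wt busulfan libraries the means were 129 and 119 nt for Smcp, 185 and 191 nt for Odf1 and 112 and 134 nt for Prm1. Both dcat busulfan libraries thus lay below both wt busulfan libraries for Smcp and Odf1, and above both for Prm1.

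The other 4 genes had too few reads for the test at 10 reads per transcript and library in dcat testes. With reads pooled over its transcripts Spata6 could be tested and was not called (-20.39 nt, SE 7.96, limma adjusted p = 0.104), and with a minimum of 5 reads neither were Nudt16l2 (-28.50 nt, SE 22.47, adjusted p = 0.442) nor 2 Spata6 transcripts. Spata6, with 20 and 55 reads, had mean tails of 150.5 and 151 nt, below its 169.6 to 175 nt in vehicle libraries and alike in both mice. Slc2a5 had 157 nt over 14 reads in replicate 2, beside 157 nt in dcat vehicle replicate 2, and its 2 reads in replicate 1 had tails of 198 nt and longer. Nudt16l2 had 158 nt over 15 reads in replicate 2, of which 14 had tails of 120 to 210 nt, and 80.3 nt over 5 reads in replicate 1, all 5 with tails of 30 to 120 nt. Cby2 had 142 nt over 17 reads in replicate 2 and 103 nt over 4 reads in replicate 1. At 2 to 5 reads in replicate 1, a genotype or treatment difference in the tails of Slc2a5, Cby2 and Nudt16l2 was not detectable at this depth.

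**Figure D5:**
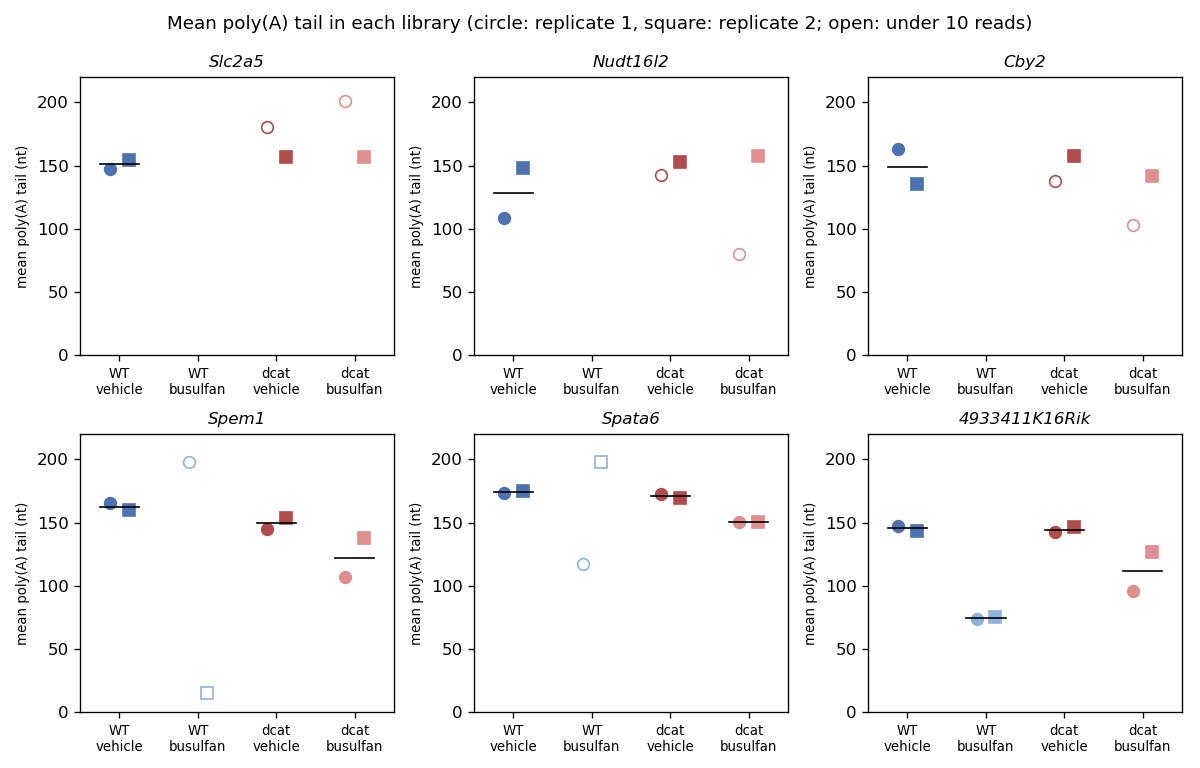
Mean poly(A) tail in nt (vertical axis, from 0) of the 6 genes in each library (circle replicate 1, square replicate 2), with open symbols for libraries with under 10 reads of the gene and a bar for the mean where both libraries had 10 or more. The 4933411K16Rik points step from 143 to 148 nt in vehicle libraries to 96.0 and 127 nt in dcat busulfan and 73.9 and 75.7 nt in wt busulfan libraries, while Spata6 stays at 150.5 nt or above where it had 10 or more reads.

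The few reads left in wt busulfan testes had tails of very different lengths. The 2 Spem1 reads had 198 nt and 15.2 nt. The 11 Spata6 reads ranged from 34.4 to 321 nt, with a mean of 198 nt over the 9 reads of replicate 2. Of the 26 reads of 4933411K16Rik, the shortest was 23.3 nt and the longest 212 nt.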

How the data were processed

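Whole testes of 8 mice were sequenced as poly(A) RNA with the Nanopore direct RNA kit. According to the study's methods and the labels, the authors used Guppy for basecalling, Deeplexicon for demultiplexing, Minimap2 for alignment to mouse (mm10, GRCm38) transcripts and Nanopolish for tails. The submitters' processing notes name minimap2 2.20-r1061. The deposited count table holds raw read counts per transcript, and the deposited tail table holds 1 tail length in nt per read as another measure, with 621202 reads. Counts and tail reads differed for 0 pairs of transcript and library, and 0 transcripts failed the authors' filter of 10 reads in both libraries of a group. The authors' own tables of fold changes and p-values were not used.

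The 6 genes and the gene lists were chosen with earlier results of these data known. The text names every transcript of the 6 genes, the 5 genes with the highest Pearson correlation with their mean (log2 TMM CPM, prior count 2, at least 40 reads), relatives in the table, and Prm1, Odf1, Smcp and Insl3; other names are marked. Counts were tested with edgeR 4.0.16 (TMM, quasi-likelihood, all 8 libraries as 4 groups) in R 4.3.3, with DESeq2 1.42.0 as an alternative, and mean tails with limma 3.58.1 (eBayes, trend on log2 of the mean read number, at least 10 reads in each library compared). Tests were two-sided with Benjamini-Hochberg adjustment over all transcripts tested, at 0.05, and were tested on simulated data. Intervals cover counting error only, and the floor of 3 reads covers only that of a count of 0.

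The label's protocol says that rep1 and rep2 are 2 multiplexed libraries with 1 mouse of each condition, so a replicate number marks a shared batch and pairs the samples. The deviations of same-numbered samples from their group means correlated at -0.13 to 0.22 in reads and at 0.0061 to 0.062 in tails. Each library is 1 mouse, and the chi-square per degree of freedom between replicates was 1.29 to 2.58. The 8 libraries held 29574 to 129074 reads, so 3 reads were 23.2 to 101 CPM.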

Additional observations from a re-analysis of the deposited data

How the results depend on the processing

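With 2 mice a group and 2 to 109 reads of a gene in a dcat busulfan library, depth limits all tail values and most levels. The counts of 0 called transcripts of the 6 genes in vehicle reads and in vehicle tails stayed at 0 under every alternative run, among them the replicate block (0 and 0). In dcat tails, busulfan against vehicle, 1 of the 2 transcripts tested was called, and also 1 with the replicate block, on the log2 scale and without dcat vehicle replicate 2. The count was 0 with medians, with a minimum of 5 or 20 reads, after centring, without the trend and with reads pooled per gene, and it ran from 0 to 2 when a replicate was left out (0 without dcat vehicle replicate 1 or dcat busulfan replicate 1, 2 without dcat busulfan replicate 2). Over all 441 transcripts, shortening was called for 86, for 135 with the replicate block, for 22 after centring (58 in all, 36 of them longer), and 50 without the trend. With at least 20 reads 48 of 168 were called, 28.6% against 19.5%. In reads, dcat over wt after busulfan had 162 calls by edgeR and 47 by DESeq2, and 7 to 360 when a replicate was left out, and dcat busulfan against vehicle had 1746 and 1095. The causes were not tested.

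Leaving out each busulfan library for the ratios to the floor of Slc2a5, Nudt16l2 and Cby2 was chosen after seeing the data. The dcat share present after busulfan changed when a library was left out, from 20.1% to 57.8% for Cby2, 24.2% to 52.4% for Nudt16l2, 7.03% to 33.3% for Slc2a5 and 41.5% to 45.8% for Spem1. With RLE scaling it was 31.2% for Nudt16l2 and 37.7% for Spem1. Against the round spermatid list the 6 genes made up 456 (wt) and 409.7 (dcat) reads per 1000 with vehicle, and 234 (wt) and 967 (dcat) with busulfan. Differences near 0 in vehicle testes changed sign. In reads (log2 fold change) these ranged, when a replicate was left out, from -0.92 to 0.19 for Slc2a5, -0.18 to 0.89 for Nudt16l2, -0.32 to 0.17 for Spata6 ENSMUST00000038868 and -0.37 to 0.099 for ENSMUST00000143879. In tails they ranged likewise from -9.65 to 11.2 nt for ENSMUST00000038868 (-2.43e-05 on the log2 scale, -1.25 nt centred), -13.7 to 3.30 nt for ENSMUST00000143879 and -2.98 to 1.12 nt for 4933411K16Rik (2.13 nt with medians, 0.012 on the log2 scale).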
